A study of Arabidopsis thaliana with 27 samples.

Results

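AT3G28510 and AT3G28540 are genes of the AAA-type ATPase family that lie close together on chromosome 3 of Arabidopsis thaliana. They were picked by their names in the platform annotation, with earlier results of these data known. Each is the gene that the platform annotation gives for 1 probe of the array, and together they are 2 of the 181 genes that can be named there. By RefSeq's annotation of assembly TAIR10.1, from which only names and gene order were taken, 2 genes, AT3G28520 and AT3G28530, lie between them, and neither has a named probe. Of 24 further family members listed for this purpose, 0 have a named probe. Transcript levels were read in leaves of 4-week-old plants on 27 one-colour arrays of 576 probes, and both genes have a value on every array.

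The groups were as follows. Leaves infiltrated with Pseudomonas syringae ES4326, called Psm, and harvested at 24 h gave 3 arrays each of the cbp60g,cbp60h,pad4 triple mutant, the cbp60g,cbp60h double mutant, pad4-1 and wild-type Col-0. Leaves infiltrated with Pseudomonas syringae pv. tomato DC3000 hrcC, which cannot inject effector proteins because its type III secretion apparatus is broken, and harvested at 9 h gave 2 arrays each of the triple mutant, the double mutant, pad4-1 and Col-0, and 3 of cbp60h. A further 4 arrays, 1 each of the triple mutant, the double mutant, pad4-1 and Col-0, are labelled hrcC at 24 h. Each array held RNA of leaves pooled over 3 pots, and sets 1 to 3 are given as biological replicates. The hrcC arrays at 9 h come from sets 1 and 2, apart from 1 cbp60h array of set 3, and those labelled 24 h all come from set 3. No mock-infiltrated leaves were analysed here. The labels name the pad4-1 allele and give no allele of cbp60g or cbp60h.

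AAA-type ATPases form rings that use the energy of ATP to unfold or remodel other proteins, for example in protein quality control and in the assembly of membrane complexes. CBP60g and CBP60h (also called SARD1) are related transcription factors that drive the synthesis of salicylic acid, the hormone behind much of the defence of leaves against biotrophic bacteria. PAD4 is a lipase-like protein that works with EDS1 in the same defence network. By its title, the study addressed how far CBP60g and CBP60h are redundant in salicylic acid signaling. The comparisons below follow the level of the ATPase genes as these regulators are lost.

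Values are log2 brightness as deposited. The base of the logarithm is not stated in the sources used here and was read from the range of the values, 0.663 to 11.4. If it is 2, a difference of 1 is a 2-fold change. Array medians lay between 3.90 and 4.53, the triple mutant's among the lowest: 4.07 to 4.38 under Psm, against 4.41 to 4.48 for Col-0, and 3.90 to 4.01 at 9 h after hrcC, against 4.21 to 4.27 for Col-0. No pair of arrays held identical values. No signal over background is given, and precision rests on the number of arrays. No probe is named for CBP60g, CBP60h or PAD4, nor for any of 18 listed markers of leaf and other cell types (0 of 18), so neither the genotypes nor the tissue were checked. Cross-hybridisation between related family members was not tested. In RNA of whole leaves, fewer cells that express a gene and less of its RNA per cell cannot be told apart.

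**Figure D1:**
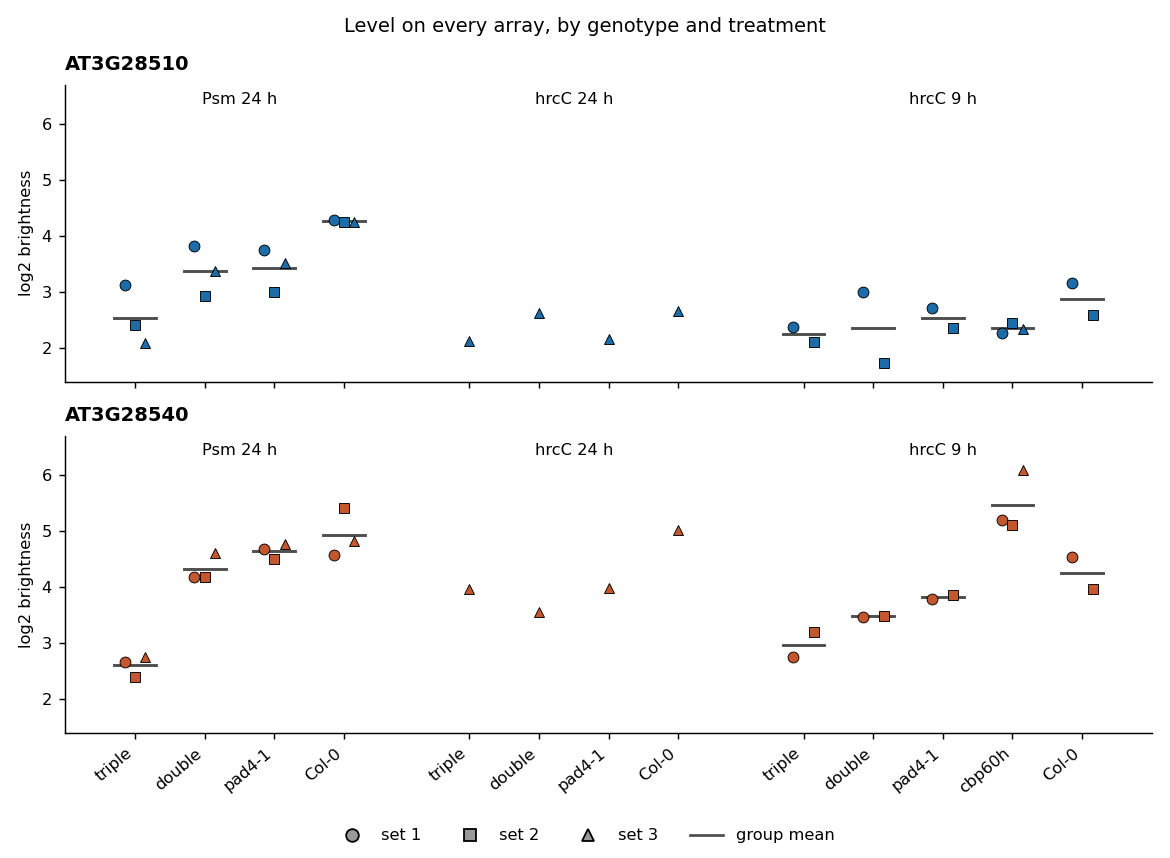
Level of AT3G28510 (top) and AT3G28540 (bottom) on each of the 27 arrays, as log2 brightness, by treatment and genotype; each symbol is 1 array, its shape gives the set, and bars are means of groups with 2 or 3 arrays. Under Psm the Col-0 arrays of AT3G28510 sit together at 4.24 to 4.29, above all mutants, while AT3G28540 is lowest in the triple mutant, at 2.39 to 2.76.

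By mean under Psm, AT3G28510 was lowest in the triple mutant, intermediate in the double mutant and pad4-1, and highest in Col-0. Its level was 3.13, 2.41 and 2.10 in the triple mutant in sets 1 to 3. The double mutant gave 3.82, 2.93 and 3.38, and pad4-1 gave 3.75, 3.0 and 3.52. Col-0 gave 4.29, 4.24 and 4.26. The triple mutant, the double mutant and pad4-1 overlapped with each other. The Col-0 arrays lay closer together than those of any mutant, and every mutant array was below every Col-0 array, so the groups of each mutant and Col-0 did not overlap. Lower levels without overlap were seen in 28.2% of the 181 genes in the triple mutant, in 7.73% in the double mutant and in 14.9% in pad4-1.

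The fall of AT3G28510 in the triple mutant under Psm passed the test. It averaged 2.55 ± 0.53 in the triple mutant and 4.26 ± 0.02 in Col-0 (SD, n = 3 each), and fell by 1.72 (SE 0.31, adjusted p = 0.000237 in limma over the 181 genes). Differences with an adjusted p under 0.05 are referred to as called. This one was called without each of the 6 arrays in turn, with differences of -2.01 to -1.49. The double mutant averaged 3.38 ± 0.45 (SD, n = 3), a difference of -0.89 from Col-0 (95% interval -1.55 to -0.23, adjusted p = 0.13 in limma). In pad4-1 the mean was 3.42 ± 0.39 (SD, n = 3) and the difference -0.84 (95% interval -1.50 to -0.18, adjusted p = 0.173 in limma). Neither passed the threshold of 0.05. The double mutant's difference, unchanged in size, did pass it when sets entered as a replicate block (adjusted p = 0.029 in limma, and 0.029 to 0.123 over the 6 alternatives run).

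For AT3G28510 no departure from additive effects of the separate losses was called under Psm. The triple mutant minus the double mutant was -0.83 (SE 0.31, adjusted p = 0.0519 in limma), and the triple mutant minus pad4-1 was -0.88 (SE 0.31, adjusted p = 0.0527 in limma). Both differences were called with the replicate block, at adjusted p = 0.0101 and adjusted p = 0.0112 in limma, the lowest of ranges that reached 0.354 and 0.284 over the alternatives run. Their sizes fell to -0.38 and -0.47 after quantile normalization and to -0.55 and -0.63 after median re-centring, without a call. The departure of the triple mutant from the sum of the double mutant's and pad4-1's differences was 0.01 (SE 0.44), with a 95% interval of -0.92 to 0.94. The interval also covers departures as large as either single difference. After quantile normalization the departure was 0.51, and after median re-centring 0.32 (adjusted p = 0.515 and 0.716 in limma). AT3G28510 is among the dimmest 25% of the 181 genes, and how far this limits its fall was not tested.

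Under Psm, AT3G28540 was lowest in the triple mutant, and of the 3 mutants its arrays alone did not overlap with Col-0. The triple mutant gave 2.67, 2.39 and 2.76 in sets 1 to 3. The double mutant gave 4.17, 4.19 and 4.60, and pad4-1 gave 4.68, 4.51 and 4.78. Col-0 gave 4.58, 5.42 and 4.83. All triple mutant arrays lay well below those of the other 3 genotypes. A triple mutant group lower without overlap was seen for 28.2% of genes against Col-0, for 24.9% against the double mutant and for 21.5% against pad4-1. The double mutant and pad4-1 each overlapped with Col-0, although within sets the double mutant was below Col-0 in 3 of 3. The share of all genes below Col-0 in every set was not computed.

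AT3G28540 fell in the triple mutant against each of the other genotypes. Its mean was 2.61 ± 0.19 against 4.94 ± 0.43 in Col-0 (SD, n = 3 each), and it fell by 2.33 (SE 0.26, adjusted p = 1.55e-06 in limma). This was the 9th lowest of the 181 differences. Against the double mutant, at 4.32 ± 0.25 (SD, n = 3), it fell by 1.71 (SE 0.26, adjusted p = 0.000129 in limma). Against pad4-1, at 4.65 ± 0.14 (SD, n = 3), it fell by 2.05 (SE 0.26, adjusted p = 5.26e-05 in limma). These 3 falls were called without each of the 6 arrays in turn. The double mutant differed from Col-0 by -0.62 (95% interval -1.17 to -0.07, adjusted p = 0.208 in limma) and pad4-1 by -0.29 (95% interval -0.83 to 0.26, adjusted p = 0.668 in limma). Both depended on the Col-0 arrays: without Col-0 replicate 1 they were -0.80 and -0.47, and without Col-0 replicate 2 they were -0.38 and -0.047.

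For AT3G28540 the departure of the triple mutant from the sum of the separate differences was -1.43 (SE 0.37, adjusted p = 0.0387 in limma). A departure in either direction was called for 5.52% of the genes. The call was lost without any 1 of 9 of the 12 arrays, where the departure stayed between -1.25 and -1.51 with adjusted p from limma up to 0.0965. It was also lost after quantile normalization (-1.12, adjusted p = 0.0762 in limma) and after re-centring each array on its median (-1.12, adjusted p = 0.0983 in limma).

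Both genes were thus called lower in the triple mutant than in Col-0 under Psm, where 24.3% of the 181 genes were called lower. The median over all 181 genes was -0.13 in that comparison, and relative to it AT3G28510 differed by -1.59 and AT3G28540 by -2.20. In the double mutant 0 of the 2 were called in limma (2 at an unadjusted p under 0.05), where 6.63% of genes were called in either direction. In pad4-1 0 of 2 were called in limma (1 at an unadjusted p under 0.05), where 2.76% were. Of both, AT3G28540 alone was called lower in the triple mutant than in the double mutant, as were 23.2% of genes, and lower than in pad4-1, as were 15.5%. These counts and shares are from the model without a block. With the set as a replicate block, AT3G28510 was called lower in the double mutant than in Col-0 (adjusted p = 0.029 in limma). The block also called it lower in the triple mutant than in the double mutant and pad4-1 (adjusted p = 0.0101 and 0.0112 in limma). Between the double mutant and pad4-1 neither gene was called, against 1.1% of genes: the difference was -0.05 (95% interval -0.71 to 0.61) for AT3G28510 and -0.33 (95% interval -0.88 to 0.21) for AT3G28540.

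**Figure D2:**
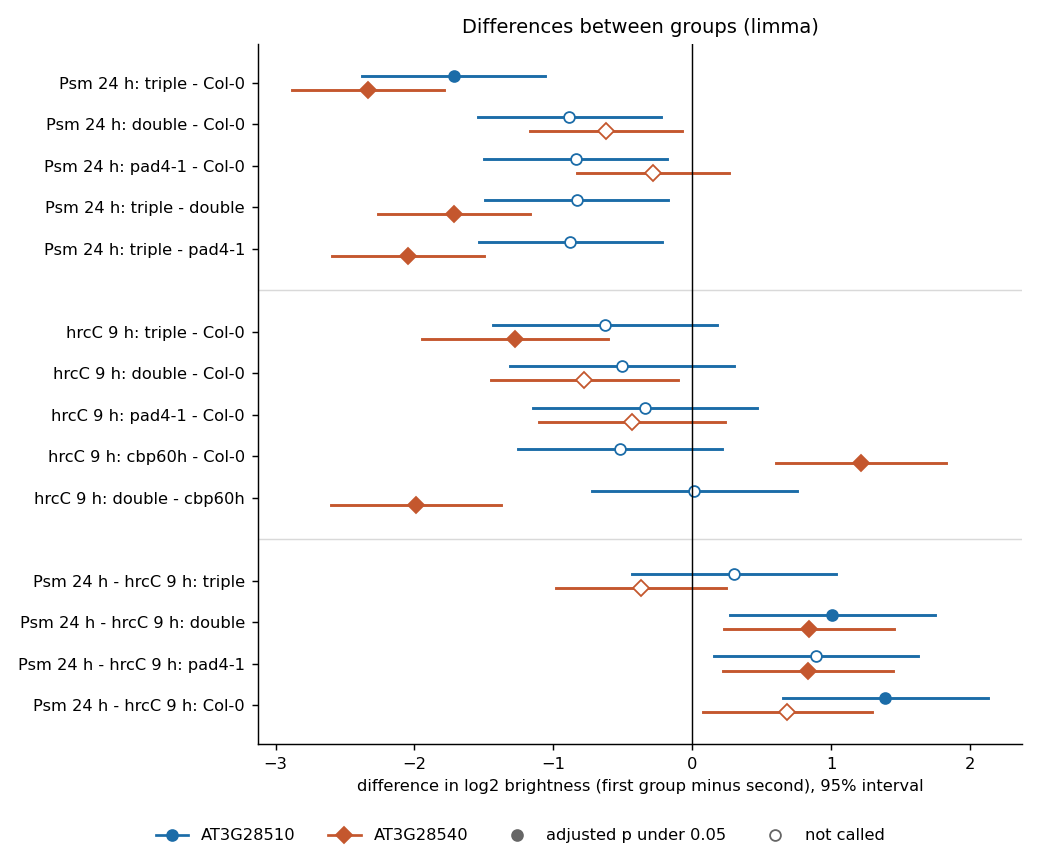
Differences in log2 brightness (first group minus second) for AT3G28510 (circles) and AT3G28540 (diamonds), with 95% intervals from limma; filled symbols have an adjusted p under 0.05 over the 181 genes. AT3G28540 falls in the triple mutant against each other genotype under Psm and is higher in cbp60h than in Col-0 under hrcC, by 1.21, where AT3G28510 differs by -0.52.

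At 9 h after hrcC, AT3G28540 was higher in cbp60h than in the double mutant and in Col-0. Its level was 5.20, 5.11 and 6.10 in cbp60h in sets 1 to 3. The double mutant gave 3.47 and 3.49 in sets 1 and 2, and Col-0 gave 4.55 and 3.96. All cbp60h arrays were above the Col-0 arrays, as for 28.2% of genes, and both double mutant arrays were below them, as for 18.2%.

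AT3G28540 averaged 5.47 ± 0.55 (SD, n = 3) in cbp60h, against 4.25 ± 0.41 in Col-0 (SD, n = 2), and rose by 1.21 (SE 0.29, adjusted p = 0.012 in limma), where 8.84% of genes were called higher. Its rise was 0.65 and 1.15 within sets 1 and 2, and set 3 held no Col-0 array at 9 h after hrcC. Without cbp60h replicate 3 the difference was 0.90 (adjusted p = 0.057 in limma), and without Col-0 replicate 2 it was 0.92 (adjusted p = 0.0904 in limma). In a fit of those 2 groups alone the same difference of 1.21 had an adjusted p of 0.101 in limma.

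The double mutant was far below cbp60h in AT3G28540 at 9 h after hrcC. The double mutant averaged 3.48 ± 0.02 (SD, n = 2) and fell by 1.99 against cbp60h (SE 0.29, adjusted p = 0.000183 in limma). This was the 5th lowest of the 181 differences. Of all genes, 16% were called lower and 35.9% were lower without overlap. The call held without each of the 5 arrays in turn, with differences of -2.17 to -1.67. Against Col-0 the double mutant differed by -0.78 (95% interval -1.45 to -0.11, adjusted p = 0.43 in limma). Between the double mutant and Col-0 0% of genes were called in limma at 9 h after hrcC (15 had an unadjusted p under 0.05, AT3G28540 among them), and between pad4-1 and Col-0 0% (10 genes, neither ATPase gene among them).

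The triple mutant was low in AT3G28540 after hrcC as well. Its arrays gave 2.75 and 3.20 at 9 h, against 4.55 and 3.96 in Col-0, without overlap, as for 27.6% of genes. The means were 2.98 ± 0.32 and 4.25 ± 0.41 (SD, n = 2 each), and the gene fell by 1.28 (SE 0.32, adjusted p = 0.0176 in limma), where 6.08% of genes were called lower. This call did not hold in several settings: the difference was -0.98 without Col-0 replicate 1 (adjusted p = 0.318 in limma), -1.05 without triple mutant replicate 1 (adjusted p = 0.258) and -1.01 after quantile normalization (adjusted p = 0.0657). Re-centring on array medians gave -0.99 (adjusted p = 0.0741 in limma) and a fit of the 2 groups alone an adjusted p of 0.0854. In pad4-1 the arrays gave 3.78 and 3.86, below those of Col-0 without overlap, as for 19.3% of genes. The difference was -0.43 (95% interval -1.10 to 0.24).

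Among the triple mutant, the double mutant and pad4-1 at 9 h after hrcC neither gene was called. The triple mutant minus the double mutant was -0.12 for AT3G28510 and -0.50 for AT3G28540, where 0.552% of genes were called. The triple mutant minus pad4-1 was -0.29 and -0.84 in the same order of genes (0.552% called). For AT3G28540 its 95% interval was -1.51 to -0.17 (adjusted p = 0.528 in limma). The double mutant minus pad4-1 was -0.17 and -0.34 (0% called, 5 genes at an unadjusted p under 0.05). The departure from additive effects was 0.22 (95% interval -0.92 to 1.36) for AT3G28510 and -0.07 (95% interval -1.01 to 0.88) for AT3G28540, with 0.552% of genes called.

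AT3G28510 lay between 1.74 and 3.16 in all genotypes at 9 h after hrcC. The gene is among the dimmest 25% of the 181 genes, and array medians lay between 3.90 and 4.53. Its level was 2.38 and 2.12 in the triple mutant, 2.99 and 1.74 in the double mutant, and 2.71 and 2.36 in pad4-1. In cbp60h it was 2.28, 2.44 and 2.34, and in Col-0 3.16 and 2.58. The triple mutant and cbp60h lay below Col-0 without overlap, as did 27.6% and 18.8% of all genes, and the other groups overlapped with it. No difference from Col-0 was called. It was -0.63 for the triple mutant (95% interval -1.43 to 0.18), -0.52 for cbp60h (95% interval -1.26 to 0.22), -0.51 for the double mutant (95% interval -1.31 to 0.30) and -0.34 for pad4-1 (95% interval -1.15 to 0.47). Without Col-0 replicate 1 the differences were -0.34 for the triple mutant, -0.23 for cbp60h and -0.050 for pad4-1, and without Col-0 replicate 2 they were -0.92, -0.81 and -0.63 in the same order. The double mutant's was -1.13 without its replicate 1 and 0.12 without its replicate 2. The double mutant minus cbp60h was 0.01 (SE 0.35), with a 95% interval of -0.72 to 0.75.

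Comparing mutants with the Col-0 array of the same set and treatment gave 6 differences per gene for each of the triple mutant, the double mutant and pad4-1. AT3G28510 was lower than Col-0 in 6 of 6 for each line. AT3G28540 was lower in 6 of 6 in the triple mutant and the double mutant and in 5 of 6 in pad4-1, where set 1 under Psm gave 0.10. All mutants were compared with the same Col-0 arrays, and the share of all genes with such counts was not computed. In the single hrcC arrays at 24 h, AT3G28540 was at 3.97 in the triple mutant, 3.55 in the double mutant and 3.99 in pad4-1, against 5.02 in Col-0. AT3G28510 stood at 2.14, 2.63 and 2.17 in these mutants, against 2.67 in Col-0. These 4 arrays have no replicates, so their genotypes were not compared by a test.

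**Figure D3:**
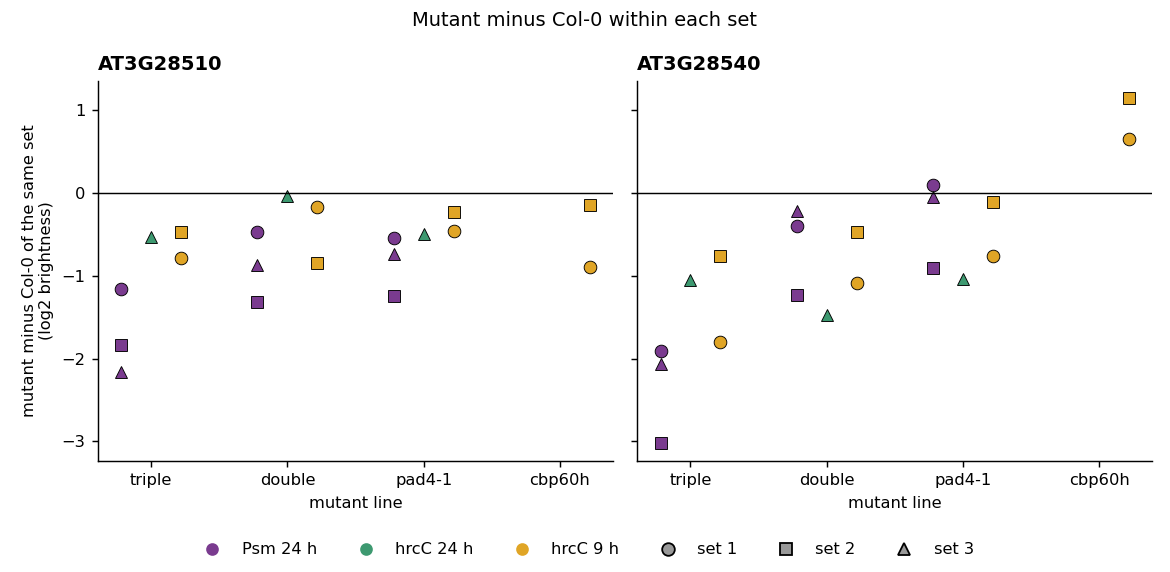
Mutant minus Col-0 of the same set and treatment, in log2 brightness, for AT3G28510 (left) and AT3G28540 (right); each symbol is 1 pair of arrays, colours give the treatment and shapes the set. AT3G28510 lies below 0 in every pair, and AT3G28540 lies above 0 in both cbp60h pairs and in 1 pair of pad4-1.

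AT3G28510 was higher with Psm at 24 h than with hrcC at 9 h in Col-0. It averaged 4.26 ± 0.02 (SD, n = 3) with Psm, against 2.87 ± 0.41 with hrcC (SD, n = 2), and rose by 1.39 (SE 0.35, adjusted p = 0.00495 in limma), where 22.7% of genes were called higher. The call was lost when Col-0 hrcC replicate 2 was left out (1.10, adjusted p = 0.079 in limma). The rise in the double mutant was 1.01 (SE 0.35, adjusted p = 0.0278 in limma), where 32% of genes were called higher. That call was lost in several settings, and the difference was 0.38 without double mutant hrcC replicate 2, 0.55 with quantiles equalised and 0.62 with medians re-centred. In pad4-1 the difference was 0.89 (SE 0.35, adjusted p = 0.0601, and 0.0132 with the replicate block, both in limma), and in the triple mutant 0.30 (95% interval -0.44 to 1.04), where 26.5% of genes were called in either direction.

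AT3G28540 rose with Psm in the double mutant and in pad4-1, and its Col-0 difference was of similar size without a call. The double mutant rose by 0.84 (SE 0.29, adjusted p = 0.027 in limma) and pad4-1 by 0.83 (SE 0.29, adjusted p = 0.0353 in limma), where 32% and 21% of genes were called higher. After quantile normalization these were 0.40 and 0.50 and no longer called, and both calls were also lost without single arrays (3 of 5 and 4 of 5 arrays left out, with differences of 0.70 to 0.92 and 0.77 to 0.91). Col-0 differed by 0.69 (SE 0.29, adjusted p = 0.0822 in limma) and the triple mutant by -0.37 (95% interval -0.98 to 0.24). Over all 181 genes the median difference was 0.16 for the triple mutant, 0.24 for the double mutant, 0.17 for pad4-1 and 0.14 for Col-0. Strain and time change together in this comparison and cannot be told apart.

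The difference between treatments in the triple mutant's effect was not called for either gene. It was -1.09 for AT3G28510 (95% interval -2.13 to -0.05, adjusted p = 0.277 in limma) and -1.06 for AT3G28540 (95% interval -1.92 to -0.19, adjusted p = 0.185 in limma). Of all genes, 3.31% were called in that test. For the double mutant the differences were -0.38 for AT3G28510 and 0.16 for AT3G28540 (0% of genes called in limma, 23 at an unadjusted p under 0.05). For pad4-1 they were -0.50 and 0.15 (0.552% called), and each interval includes 0.

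At 24 h in set 3, time and set were the same for both strains by the labels. AT3G28510 was at 2.10 with Psm and 2.14 with hrcC in the triple mutant, and at 3.38 with Psm and 2.63 with hrcC in the double mutant. It was at 3.52 with Psm and 2.17 with hrcC in pad4-1, and at 4.26 with Psm and 2.67 with hrcC in Col-0. The gene was higher with Psm in each genotype but the triple mutant. Across the 4 genotypes the difference was 0.92 (SE 0.32, adjusted p = 0.0558 in limma with genotype as a term), and 1.23 (adjusted p = 0.0104) with the triple mutant left out, a setting that singles out the genotype without a rise. Under quantile normalization and median re-centring the difference across the 4 genotypes was only 0.46 to 0.58 (adjusted p = 0.193 to 0.261 in limma). Of all genes, 21.5% were called higher with Psm in the fit of 4 genotypes. All arrays of this fit come from set 3, so its p-values rest on differences between genotypes and not on replicate sets. AT3G28540 was at 2.76 with Psm and 3.97 with hrcC in the triple mutant, and at 4.83 with Psm and 5.02 with hrcC in Col-0. In the double mutant it was at 4.60 with Psm and 3.55 with hrcC, and in pad4-1 at 4.78 with Psm and 3.99 with hrcC. The triple mutant and Col-0 were lower with Psm and the other genotypes higher, and the mean difference was 0.11 (95% interval -0.75 to 0.97). Between hrcC at 24 h and at 9 h AT3G28510 differed by -0.11 (95% interval -0.59 to 0.38) and AT3G28540 by 0.50 (95% interval 0.09 to 0.91, adjusted p = 0.155 in limma). Of all genes, 2.21% were called there. Time and set cannot be told apart in that comparison.

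Ordered by mean over the 9 groups with replicates, AT3G28510 ran from Col-0 under Psm, at 4.26, down to the triple mutant after hrcC, at 2.25. Only the first step, to pad4-1 under Psm at 3.42, separated neighbouring groups without overlap, as for 14.9% of genes. AT3G28540 ran from cbp60h after hrcC, at 5.47, down to the triple mutant under Psm, at 2.61. In that order the groups down to Col-0 after hrcC, at 4.25, overlapped with their neighbours. Each step from there through pad4-1 (3.82) and the double mutant (3.48) to the triple mutant (2.98), all after hrcC, was without overlap, a pattern that pad4-1 minus Col-0 shared with 19.3% of genes, the double mutant minus pad4-1 with 18.8% and the triple mutant minus the double mutant with 31.5%. The last step, to the triple mutant under Psm, overlapped again.

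Whether the genes moved by unequal amounts was tested on the difference between them within each array, which does not depend on array scaling. AT3G28510 minus AT3G28540 was 0.46, 0.02 and -0.66 in the triple mutant under Psm, against -0.28, -1.17 and -0.57 in Col-0. These ranges overlapped. The means differed by 0.61 in the triple mutant (exact permutation p = 0.3, two-sided), by -0.27 in the double mutant (exact permutation p = 0.5) and by -0.55 in pad4-1 (exact permutation p = 0.2). With 3 arrays against 3 the smallest p possible is 0.1, so this test could not pass 0.05. Within sets 1 to 3 the mutant minus Col-0 was 0.74, 1.19 and -0.09 in the triple mutant, -0.07, -0.09 and -0.65 in the double mutant, and -0.64, -0.34 and -0.69 in pad4-1. The sign was the same in 3 of 3 sets in pad4-1 and in the double mutant, and in 2 of 3 in the triple mutant. With the set as a replicate block, exact permutation of the signs gave p = 0.25 for pad4-1 and for the double mutant, the smallest that 3 pairs allow, and p = 0.5 for the triple mutant. This paired test was added after the data were seen.

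Likeness of profile was measured by Pearson's r over the 13 condition means, which share sets and array scaling with each other. All genes were read on the same arrays. Each hrcC condition at 24 h is a single array and weighs as much as a mean of several. The genes had r = 0.42 with each other, which ranked AT3G28540 82nd among 180 genes by likeness to AT3G28510, and AT3G28510 35th among 180 by likeness to AT3G28540. Closest to AT3G28510 were AT4G00700 (r = 0.97), AT3G13950 (r = 0.96) and BGLU45 (AT1G61810, r = 0.95), a beta-glucosidase gene. AT5G39670 (r = 0.92) and AT5G60800 (r = 0.91) followed. Closest to AT3G28540 was UGT76B1 (AT3G11340, r = 0.94), whose product glucosylates salicylic acid and isoleucic acid. Next were the chaperone gene Hsp70-2 (AT5G02490, r = 0.88), AT4G38540 (r = 0.81), AT1G08050 (r = 0.81) and AT4G25900 (r = 0.78). The lists of 5 share no gene.

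**Figure D4:**
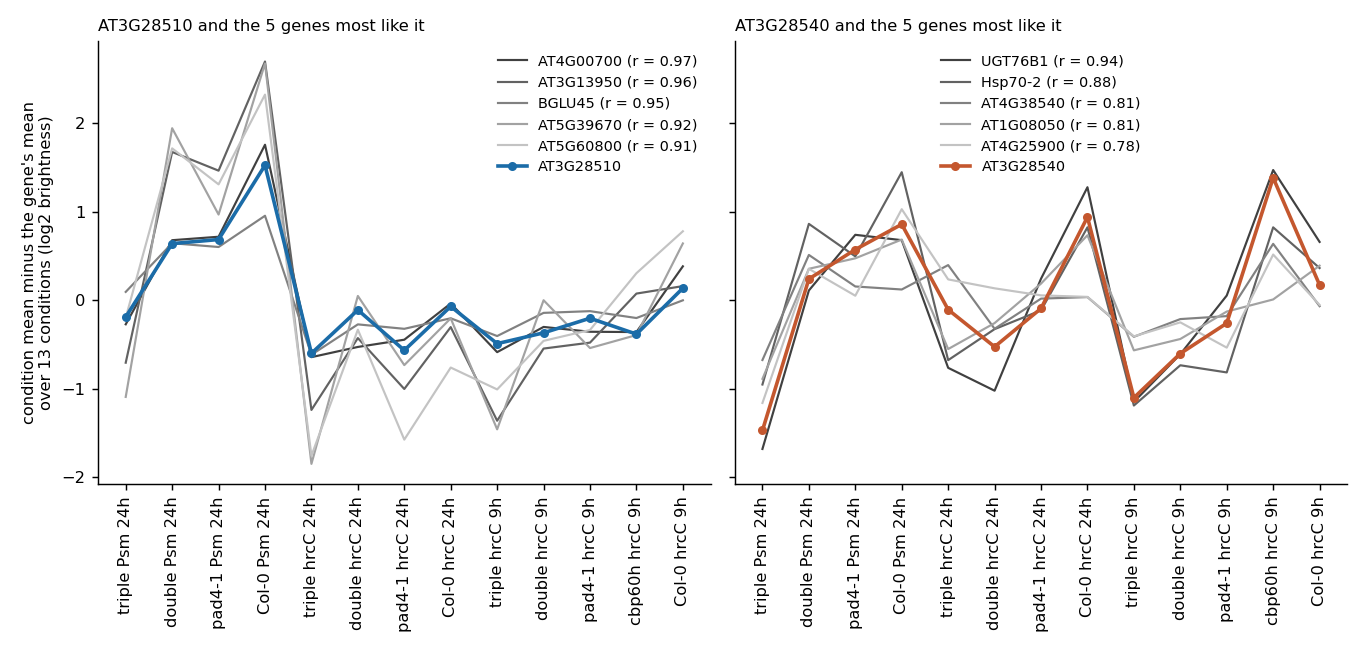
Condition means minus the gene's own mean over the 13 conditions (log2 brightness) for AT3G28510 (left, blue) and AT3G28540 (right, orange) with the 5 genes of highest Pearson's r to each (grey); lines only join the conditions of 1 gene. AT3G28510 and its 5 neighbours peak in Col-0 under Psm, while AT3G28540 and UGT76B1 peak in cbp60h after hrcC.

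Of 29 genes listed for the salicylic acid and PAD4-CBP60 pathway, 3 were measured under a name: UGT76B1, WRKY53 (a transcription factor gene) and GRX480 (a glutaredoxin gene). In the triple mutant under Psm 3 of 3 were called lower than in Col-0, with a median of -1.92, against 24.3% of all genes and a median of -0.13. In the double mutant 1 of 3, WRKY53, was called lower, against 2.76% of all genes. In pad4-1 0 of 3 were called in limma, against 2.76% of all genes called in either direction. WRKY53 differed from Col-0 by -0.80 in pad4-1 (SE 0.27, adjusted p = 0.12 in limma), UGT76B1 by 0.06 and GRX480 by 0.14. In the triple mutant UGT76B1 fell by 1.79 against the double mutant (SE 0.44, adjusted p = 0.00421 in limma) and fell by 2.42 against pad4-1 (SE 0.44, adjusted p = 0.00119 in limma), comparisons in which AT3G28540 was called lower too. Against the double mutant, GRX480 fell by 1.48 (adjusted p = 0.000598 in limma), and WRKY53 differed by -0.31 (adjusted p = 0.433 in limma). Against the double mutant 2 of 3 were thus called lower, and against pad4-1 3 of 3, beside 23.2% and 15.5% of all genes. WRKY53 fell by 1.61 in the double mutant (SE 0.27, adjusted p = 0.000564 in limma), where neither ATPase gene was called in the model without a block. The comparisons of these genes use the same arrays as those of the ATPase genes, so their values are set side by side only.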

How the data were processed

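Total RNA was amplified, labelled with 1 dye (Alexa555) and hybridised to one-colour arrays, per the labels' protocols. The deposited table holds 1 value per probe and array, read as log2 brightness. Scanner, background correction and normalization were not given in the sources used here. The platform annotation, which can be old, names 1 gene for 181 of 576 probes, several for 0 and none for 395. All 181 names matched the RefSeq table (180 by gene ID, 1 by name).

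The deposited log2 values of the 181 genes were tested with limma 3.58.1 (R 4.3.3). The 23 arrays of the 9 replicated groups entered 1 group-means model without a block, for 23 comparisons. Additive models with genotype as a term gave 2 more, Psm against hrcC in set 3 and hrcC at 24 h against 9 h. Tests were two-sided, Benjamini-Hochberg adjusted over the 181 genes within each comparison, and called at 0.05. The script was tested on simulated data. The series' design text calls the sets biological replicates, and in the 23-array fit p-values measure the spread between these sets. In the set 3 fit every array comes from 1 set, so its p-values measure how the strain difference varied between genotypes. The fit of hrcC at 24 h against 9 h rests on both kinds of spread.

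The labels call each set an experiment of its own, so set numbers pair arrays. The main model left this pairing out, and the set as a block was an alternative. Deviations from group means correlated at a median of 0.19, 0.05 and 0.32 within sets 1, 2 and 3, and at -0.08 between sets.

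The genes, lists and tests were chosen with earlier results of these data known. The genes named for likeness are the 5 of highest r per gene. Alternatives were the set as a block, quantile normalization, median re-centring, all probes tested, an intensity trend, a filter on the dimmest 25% of genes, only the groups compared, and each array left out.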

Additional observations from a re-analysis of the deposited data

Results flagged for a closer look

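One result differed between groups by a test of the difference itself. For AT3G28540 under Psm, the effect of losing PAD4 differed between the line that lacks CBP60g and CBP60h and the wild type: the triple mutant minus the double mutant was -1.71, while pad4-1 minus Col-0 was -0.29, and the difference of these effects was -1.43 (SE 0.37, adjusted p = 0.0387 in limma). The call was lost without any 1 of 9 of the 12 arrays, after quantile normalization (-1.12, adjusted p = 0.0762 in limma) and after median re-centring (-1.12, adjusted p = 0.0983 in limma). Groups held at most 3 arrays, so none was tested for an outlying array.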

How the results depend on the processing

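The 23 comparisons of the joint model were repeated for each gene in the alternatives listed above. The other 2 were repeated only with quantile normalization, with median re-centring and with each genotype left out. Under Psm, both genes' calls in the triple mutant against Col-0 and AT3G28540's against the double mutant and pad4-1 held in every alternative run, at -1.72 to -1.37 and -2.33 to -1.97 against Col-0. With the set as a replicate block, AT3G28510 was called in the double mutant against Col-0 (-0.89), in the triple mutant against the double mutant (-0.83) and pad4-1 (-0.88) under Psm, and in pad4-1 for Psm against hrcC (0.93), and its double mutant minus cbp60h turned to -0.021. The block changed no other call. Testing all probes or an intensity trend also called the triple mutant differences of -0.83 and -0.88, and the trend the pad4-1 difference of 0.89. Fitting only the groups compared ended AT3G28540's hrcC calls in the triple mutant (-1.28) and cbp60h (1.21) and AT3G28510's Psm rise in the double mutant (1.01), and called AT3G28510's in pad4-1 (0.89). Restricting the fit to sets 1 and 2, chosen after seeing the data, ended the cbp60h call (0.90). The filter on the dimmest genes removed AT3G28510 and gave no value for it.

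Quantile normalization and median re-centring ended the calls of AT3G28540's departure from additivity (-1.12 in both), of its hrcC fall in the triple mutant (-1.01 and -0.99), of the Psm rises in the double mutant (0.55 and 0.62 for AT3G28510, 0.40 and 0.45 for AT3G28540) and in pad4-1 (0.50 and 0.48 for AT3G28540). For AT3G28510 under Psm the triple mutant minus the double mutant shrank to -0.38 and -0.55. The triple mutant minus pad4-1 shrank to -0.47 and -0.63, and the departure from additivity grew to 0.51 and 0.32. Psm against hrcC in set 3 shrank to 0.46 to 0.58 for this gene. Uncalled values near 0 changed sign. For AT3G28540 these were the double mutant's effect under Psm minus hrcC (-0.022 and -0.026), pad4-1's (-0.0050 on re-centring) and Psm against hrcC in set 3 (-0.18 and -0.22). For AT3G28510 they were hrcC at 24 h against 9 h (0.046, quantile) and the triple mutant minus the double mutant after hrcC (0.046, re-centring). The cause was not tested.

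Leaving out 1 array at a time, AT3G28510 under Psm ranged from -1.12 to -0.61 for the triple mutant minus the double mutant, -1.17 to -0.65 minus pad4-1, -0.27 to 0.18 for the double mutant minus pad4-1 and -0.28 to 0.23 for the departure from additivity. After hrcC it ranged from -1.13 to 0.12 for the double mutant minus Col-0, -0.61 to 0.64 minus cbp60h, -0.79 to 0.46 minus pad4-1, -0.75 to 0.50 for the triple mutant minus the double mutant and -0.41 to 0.84 for the departure. Against Col-0 it ranged from -0.92 to -0.34 for the triple mutant, -0.81 to -0.23 for cbp60h and -0.63 to -0.050 for pad4-1. Psm minus hrcC ranged from 1.10 to 1.68 in Col-0, 0.38 to 1.63 in the double mutant, 0.72 to 1.10 in pad4-1 and 0.69 to 1.23 in set 3 (genotypes left out), and the double mutant's effect between treatments from -1.01 to 0.24. AT3G28540 under Psm ranged from -0.80 to -0.38 for the double mutant minus Col-0 and -0.47 to -0.047 for pad4-1 minus Col-0. It ranged from -1.67 to -1.25 for its departure under Psm and -0.36 to 0.23 after hrcC. After hrcC it ranged from -1.57 to -0.98 for the triple mutant minus Col-0, 0.90 to 1.51 for cbp60h minus Col-0, -1.07 to -0.48 for the double mutant minus Col-0 and -0.73 to -0.14 for pad4-1 minus Col-0. Psm minus hrcC ranged from 0.39 to 0.98 in Col-0, 0.70 to 0.92 in the double mutant, 0.77 to 0.91 in pad4-1 and -0.21 to 0.55 in set 3, and the effects between treatments from -0.14 to 0.45 in the double mutant and -0.15 to 0.44 in pad4-1.

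The groups of 2 arrays after hrcC and the 4 single arrays at 24 h limit the precision. A lone array left in a group was assumed to vary like the other groups.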
